A study of Mus musculus with 9 samples.

Results

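The comparison described here sets the 3 livers labelled as lacking both NEMO in hepatocytes and p21 in every cell against the 3 livers labelled as lacking NEMO in hepatocytes alone, 6 of the 9 arrays of the series. The arrays were taken by their titles, and all 28939 probe sets left after control probe sets were put aside were tested. RNA came from whole livers, taken at 8 to 9 weeks of age from male mice on the C57/BL6 background, 1 single-channel Affymetrix array per liver. The NEMO knockout group carries the hepatocyte-specific deletion called NEMOΔhepa, the labelled double knockout carries that deletion in a cross with constitutive p21-/- mice, and wild type livers, also 3, entered the fit for its estimate of the spread. The labels do not name the Cre line, no group lacked p21 alone, and the deletion in hepatocytes leaves NEMO in the other cells of the liver. The labels give different identifiers to the livers of a group and say no more of their independence, so p-values measure the spread between these samples.

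NEMO is the product of Ikbkg and the regulatory part of the IKK complex that activates NF-kB, and hepatocytes without it are known to die more readily, with inflammation and compensatory division in the liver. p21, encoded by Cdkn1a, is a p53 target that binds and inhibits cyclin-dependent kinases. When those kinases are held back, the pocket proteins of the retinoblastoma family stay bound to E2F factors, which drive DNA replication genes. Pocket proteins also stay in the DREAM complex, which represses genes of mitosis through a promoter element known as CHR. Interferon-stimulated genes, in turn, are induced through STAT and IRF factors in response to interferons.

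Both deleted genes were read first. The only Cdkn1a probe set, annotated jointly to 4930567H12Rik, had log2 signals of 9.76, 10.70 and 9.83 in the NEMO knockout and 11.14, 10.14 and 11.06 in the labelled double knockout, against 8.54, 9.64 and 7.83 in wild type. The labelled double knockout was therefore not the low group, and its range overlapped that of the NEMO knockout (difference 0.68 ± 0.45 SE, adjusted p = 0.803). The sources used here do not place the probe set inside or outside the deleted stretch, so its signal is no check of the deletion. The group is called the labelled double knockout throughout, and every direction below rests on the labels. Ikbkg stood at 8.23, 8.47 and 8.35 in the NEMO knockout and at 8.10, 8.26 and 8.45 in the labelled double knockout, with wild type at 8.73 to 8.98. Both knockout groups lay below wild type, and they overlapped with each other (difference -0.08 ± 0.11, adjusted p = 0.928).

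The arrays carried a liver profile, with Alb and Apoa1 at the 99.97th and 99.95th percentile of all probe sets. Array medians ran from 6.47 to 6.58. Arrays of the NEMO knockout correlated with those of the labelled double knockout at 0.9918 to 0.9953. Within the groups the range was 0.9939 to 0.996 for the NEMO knockout and 0.995 to 0.996 for the labelled double knockout. Running numbers in the labels place the labelled double knockout apart from the other groups, so genotype and the order they record cannot be told apart. In whole tissue, fewer cells of a type and less RNA per cell cannot be told apart either.

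A probe set was called where the Benjamini-Hochberg adjusted p of limma's moderated test was under 0.05. By that rule 57 probe sets, or 0.197% of those tested, differed between the labelled double knockout and the NEMO knockout. Of these, 25 (0.0864%) were higher and 32 (0.111%) were lower in the labelled double knockout, and the 3 arrays of each group did not overlap in any of them. At an unadjusted p under 0.05 the share was 7.46% (3.47% higher and 3.99% lower), and the groups did not overlap in 4.99% of probe sets on the higher side and 5.75% on the lower side. For scale, the same fit called 7.68% of probe sets between the NEMO knockout and wild type and 9.32% between the labelled double knockout and wild type. These comparisons share arrays, so their values are only set side by side. The count rested on single arrays. It was 44 without wild type replicate 1, 19 and 14 without wild type replicates 2 and 3, 17, 18 and 11 without NEMO knockout replicates 1, 2 and 3, and 17, 27 and 10 without the labelled double knockout replicates 1, 2 and 3. After centring every array on its own median, 17 probe sets were higher and 14 lower.

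**Figure D1:**
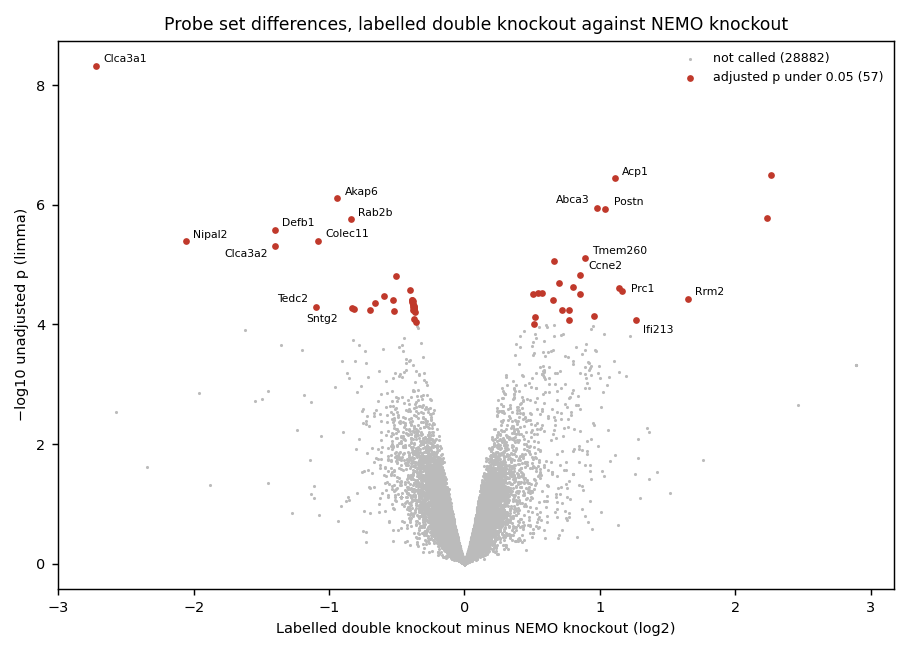
Log2 difference of each of the 28939 probe sets (labelled double knockout minus NEMO knockout, horizontal) against -log10 of its unadjusted limma p (vertical); red points are the 57 called probe sets, of which some with 1 gene symbol are named. Clca3a1 stands apart at the left at -2.72, and the called points on the right reach from 0.51 to 2.27.

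Of the called probe sets, 33 carry 1 gene symbol, 18 of them higher and 15 lower. Of the higher ones Rrm2 is on the replication list, Prc1 on the mitotic list, Ccne2 on the list of G1 cyclins and kinases, and Gtse1 and Eda2r on that of p53 targets. Ticrr, G2e3 and Cep55 are on none of these lists, and their grouping with the cell cycle genes below was made after their values were seen. No lower one is on the replication or mitotic list, but lower calls outside the lists, such as Tedc2 (-1.10), were not grouped in that way. The grouping therefore does not show a direction of cell cycle genes. Since the promoters of cell cycle genes are well described, the stretch from 250 bases before to 30 bases after the start is shown for 4 of them, as RefSeq gives it on GRCm38.p6. Capitals mark the words TTTGAA (CHR), CCAAT and the E2F words TTCCCGC or TTGGCGC or TTCGCGC or TTGCCGC on either strand. Prc1 lies on the plus strand at chr7:80294201-80294480, Rrm2 on the plus strand at chr12:24708004-24708283, Ticrr on the plus strand at chr7:79659946-79660225 and Gtse1 on the plus strand at chr15:85859457-85859736.
Prc1: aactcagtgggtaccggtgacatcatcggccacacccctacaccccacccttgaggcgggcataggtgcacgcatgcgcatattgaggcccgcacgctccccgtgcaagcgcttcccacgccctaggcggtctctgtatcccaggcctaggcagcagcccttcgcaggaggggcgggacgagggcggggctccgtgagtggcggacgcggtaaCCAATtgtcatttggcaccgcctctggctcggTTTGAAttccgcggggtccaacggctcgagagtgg
Rrm2: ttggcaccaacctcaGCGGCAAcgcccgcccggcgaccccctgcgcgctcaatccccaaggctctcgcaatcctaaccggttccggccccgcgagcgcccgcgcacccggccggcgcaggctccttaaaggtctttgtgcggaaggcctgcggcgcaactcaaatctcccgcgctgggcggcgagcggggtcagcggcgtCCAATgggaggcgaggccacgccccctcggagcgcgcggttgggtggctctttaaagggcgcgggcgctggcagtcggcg
Ticrr: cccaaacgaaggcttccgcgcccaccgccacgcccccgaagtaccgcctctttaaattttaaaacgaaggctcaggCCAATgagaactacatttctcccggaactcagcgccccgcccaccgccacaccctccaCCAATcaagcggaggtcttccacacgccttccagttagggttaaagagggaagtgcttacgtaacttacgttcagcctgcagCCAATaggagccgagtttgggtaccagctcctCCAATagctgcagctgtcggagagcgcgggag
Gtse1: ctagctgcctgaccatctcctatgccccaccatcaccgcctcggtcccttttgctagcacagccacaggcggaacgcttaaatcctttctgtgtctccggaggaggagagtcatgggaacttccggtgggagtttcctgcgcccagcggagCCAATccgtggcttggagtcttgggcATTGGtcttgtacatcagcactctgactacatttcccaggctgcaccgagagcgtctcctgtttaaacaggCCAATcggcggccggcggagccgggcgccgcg
The Prc1 stretch holds a CCAAT word at -37 and a CHR word at -5, counted from the start. The Rrm2 stretch holds an E2F word and 1 CCAAT word. Ticrr holds 4 CCAAT words and Gtse1 holds 3, and neither holds a CHR or E2F word here. A match of letters is a description of the window and says nothing of a factor.

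Over whole lists the same words can be counted, in windows of 300 bases on either strand. Among 27025 promoters, 18.1% held the CHR word, 37.9% the CCAAT word and 9.69% an E2F word. Of the mitotic list, 54 of 63 genes had a promoter entry, and 70.4% of those held the CHR word, 72.2% CCAAT and 18.5% an E2F word. Of the replication list, 32 of 38 had an entry, and 12.5% held the CHR word, 62.5% CCAAT and 62.5% an E2F word. Of the interferon list 22 of 31 had one, and the shares stood at 18.2%, 40.9% and 13.6%. For called genes with 1 symbol the shares were 37.5%, 62.5% and 12.5% in the 16 of 18 higher genes that had an entry, and 18.2%, 45.5% and 18.2% in 11 of 15 lower genes. In these windows the mitotic and replication genes thus differ in which word is frequent, and both carry CCAAT more often than promoters at large.

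Among genes that make DNA or prepare it for copying, Rrm2, the small subunit of ribonucleotide reductase that supplies deoxynucleotides, had the largest called rise of a single-symbol gene. Its log2 signal was 7.05, 8.00 and 7.70 in the NEMO knockout and 8.93, 9.40 and 9.37 in the labelled double knockout, with wild type at 6.27 to 6.64. Every labelled double knockout array lay above every NEMO knockout array, a rise of 1.65 ± 0.23 (3.14-fold, adjusted p = 0.0348). Ticrr, which works with Topbp1 to start DNA replication at origins, went from 5.47, 5.61 and 5.52 to 6.24, 6.13 and 6.23 (0.66 ± 0.08, adjusted p = 0.0182). Ccne2, the cyclin that with Cdk2 starts S phase, was nearly constant at 5.32 to 5.36 in the NEMO knockout and read 6.12, 6.14 and 6.33 in the labelled double knockout (0.85 ± 0.10, adjusted p = 0.0284). Wild type Ccne2 lay at 4.91 to 5.32, so the gene was near the wild type range in the NEMO knockout and above it in the labelled double knockout. Of these calls, Rrm2 held only without NEMO knockout replicate 2 (adjusted p 0.0451 to 0.161 over the arrays left out). Ccne2 held without wild type replicates 1 and 3 only (0.0158 to 0.129), and Ticrr was lost without wild type replicate 3, NEMO knockout replicates 1 and 3 or the labelled double knockout replicates 1 and 3 (0.0168 to 0.0995).

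Among genes of cell division, Prc1, which bundles the microtubules of the spindle midzone for cytokinesis, read 5.99, 6.28 and 6.22 in the NEMO knockout and 7.13, 7.41 and 7.43 in the labelled double knockout. The groups were separate, and wild type was lower still at 5.07 to 5.66, so Prc1 climbed in steps over the 3 groups (rise over the NEMO knockout 1.16 ± 0.15, 2.23-fold, adjusted p = 0.0348). Gtse1, a microtubule-binding protein of G2 and mitosis that is also counted as a p53 target, went from 6.92, 7.04 and 6.92 to 7.43, 7.76 and 7.65 (0.66 ± 0.09, adjusted p = 0.0348). G2e3, a ubiquitin ligase named for its expression in G2, went from 6.10, 6.42 and 6.46 to 7.03, 7.27 and 7.09 (0.80 ± 0.10, adjusted p = 0.0348). Cep55, which recruits the abscission machinery to the midbody, was weak on these arrays but tight, at 4.69 to 4.70 in the NEMO knockout and 5.18 to 5.24 in the labelled double knockout (0.51 ± 0.07, adjusted p = 0.0348). Prc1 and Cep55 kept the call only without wild type replicate 1, Gtse1 only without the labelled double knockout replicate 1, and G2e3 only without the first replicate of either wild type or the NEMO knockout, with adjusted p up to 0.161, 0.163, 0.167 and 0.136. Over the arrays left out the differences ran from 1.07 to 1.26 for Prc1 and from 0.69 to 0.87 for G2e3. As the groups were separate, leaving out an array could not change their sign.

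Replication-dependent histones, which are made in S phase to package new DNA, supplied 2 more single-symbol calls. H2ac4 was close to the lowest signals of the array in the NEMO knockout, at 3.28, 3.20 and 3.40, and read 4.08, 4.78 and 4.44 in the labelled double knockout (1.14 ± 0.15, adjusted p = 0.0348). H2bc3 went from 6.38, 6.61 and 6.68 to 7.25, 7.54 and 7.45 (0.86 ± 0.11, adjusted p = 0.0348). A probe set shared by H4c17 and H4c11 rose by 0.70 ± 0.09 as well. Histone genes of a class are nearly identical in sequence, so which copy was read is uncertain. H2ac4 lost its call without wild type replicates 2 or 3, any NEMO knockout array or the labelled double knockout replicate 3 (adjusted p up to 0.152), and H2bc3 kept it only without wild type replicate 1 (up to 0.152).

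**Figure D2:**
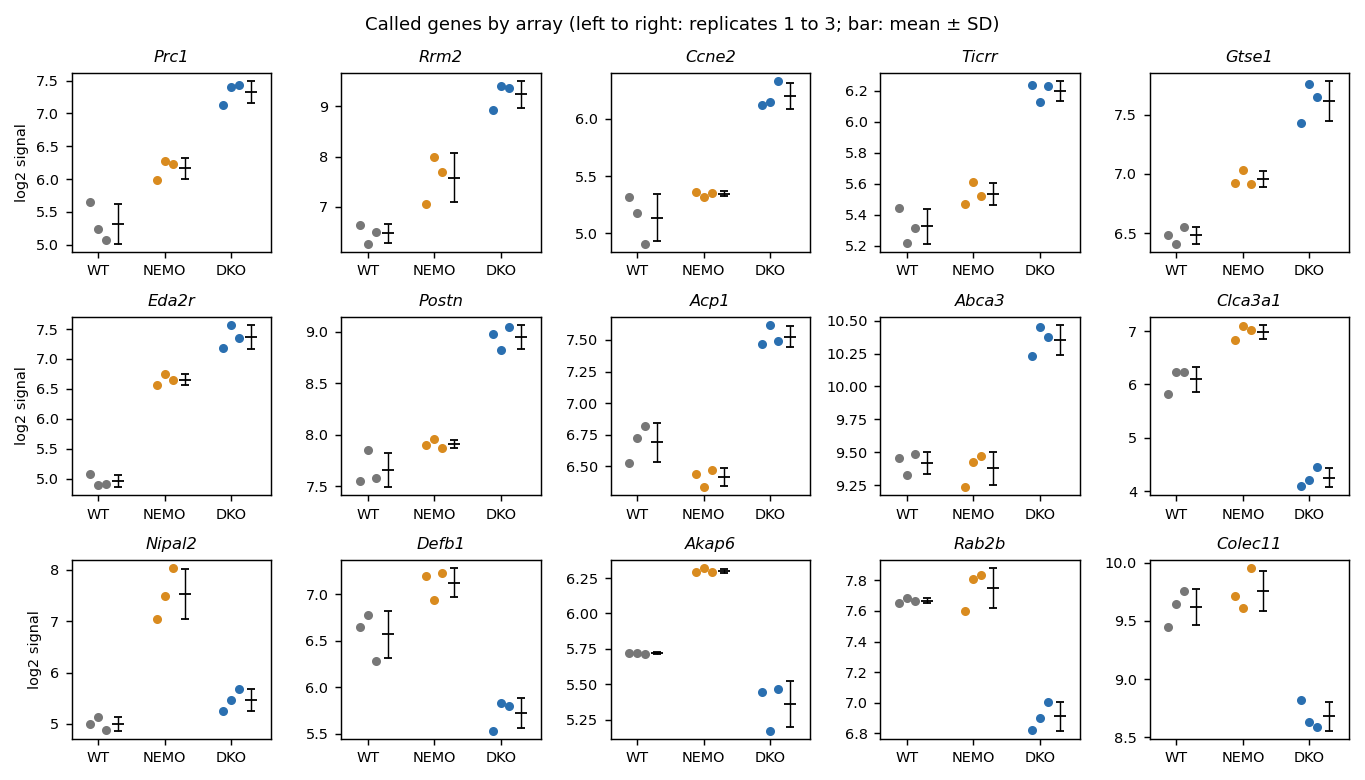
Log2 signal of 15 called genes on each array of wild type (WT), the NEMO knockout (NEMO) and the labelled double knockout (DKO), replicates 1 to 3 from left to right, each panel on its own scale, with a bar for mean ± SD. The NEMO and DKO points are separate in every panel: Prc1 and Rrm2 climb from WT through NEMO to DKO, Clca3a1 falls from 6.83 to 7.09 in NEMO to 4.11 to 4.46 in DKO, and Nipal2 stands high in NEMO alone.

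The list of mitotic entry, spindle and cytokinesis genes stood higher almost throughout, although few of its members passed the test. Of 63 measured, only Prc1 was called, none was called lower, and 62 had a higher mean in the labelled double knockout. The 3 arrays of each group were fully separate on the higher side in 53 of 63 members (all probe sets, 4.99%), and the median difference was 0.67 against 0.00 over all probe sets. The mean log2 signal of the list was 6.54 to 6.90 over the NEMO knockout arrays and 7.24 to 7.42 over the labelled double knockout arrays, with wild type at 5.67 to 6.24. Those ranges did not overlap. The number of called members depended on the arrays kept: 10 without wild type replicate 1 and 0 without any other single array. Each time 62 or 63 members were positive, a sign that leaving out an array could not change in the 53 separate ones.

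Cdk1, the kinase that drives entry into mitosis, read 8.15, 8.41 and 8.37 in the NEMO knockout and 9.24, 9.45 and 9.41 in the labelled double knockout. The groups were separate, but wild type ran from 6.29 to 7.38 and the shared spread left the difference of 1.06 ± 0.22 uncalled (adjusted p = 0.156). Anln, the cleavage-furrow scaffold anillin, had the largest difference of the list, from 6.40, 6.99 and 6.67 to 7.76, 7.92 and 8.04 (1.22 ± 0.20, adjusted p = 0.0612). Ube2c, the ubiquitin-conjugating enzyme of the anaphase-promoting complex, was tight in both groups at 7.66 to 7.87 and 8.83 to 8.85 (1.11 ± 0.21, adjusted p = 0.104). These 3, with Knl1 and Aurka, were called without wild type replicate 1, at adjusted p of 0.0291 for Cdk1, 0.0256 for Anln and 0.00765 for Ube2c.

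Other members spanned the whole of mitosis without passing the test. The kinetochore scaffold Knl1 differed by 1.14, the spindle motor Kif11 by 1.07, the checkpoint kinase Bub1 by 1.06 and the cytokinesis regulator Ect2 by 1.02. Top2a, which untangles sister chromatids, went from 6.52, 6.93 and 6.97 to 7.44, 8.01 and 7.94 (0.99 ± 0.20, adjusted p = 0.126). Aurka, a kinase of the spindle poles, differed by 0.89 (adjusted p = 0.0833), and Aurkb, Plk1 and Ccna2 by 0.95, 0.93 and 0.93. Ccnf, a cyclin that targets substrates for destruction, missed the threshold by little, at 7.08, 7.40 and 7.40 against 7.84, 7.86 and 8.02 (0.61 ± 0.10, adjusted p = 0.0505). Mki67, the gene of the proliferation antigen, stood at 8.04, 8.62 and 8.20 against 8.93, 9.10 and 9.14 (0.77 ± 0.32, adjusted p = 0.643).

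Members of the list did not all behave alike. Pttg1, the gene of securin, read 8.64, 8.73 and 7.73 in the NEMO knockout and 8.31, 8.47 and 8.31 in the labelled double knockout. The mean difference rounds to 0.00, and its sign turned under 4 of the arrays left out and 3 other settings. Ccnb2, a mitotic B-type cyclin, overlapped because NEMO knockout replicate 2 at 9.87 exceeded the labelled double knockout at 9.80 to 9.82 (0.47 ± 0.36, adjusted p = 0.846). Cks2 and Cdc25b differed by only 0.11 and 0.12. NEMO knockout replicate 2 was the highest of its group in Bub1 (6.86), Ect2 (9.01) and Kif11 (7.55) too, and wild type replicate 1 was the highest wild type array in Cdk1 (7.38), Knl1 (6.002) and Ect2 (7.57).

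All 38 measured genes of DNA replication and nucleotide supply had a higher mean in the labelled double knockout, with Rrm2 the only call. The groups were separate on the higher side in 23 of 38 (all probe sets, 4.99%), and the median difference was 0.32. The list mean lay at 6.88 to 6.98 in the NEMO knockout and 7.16 to 7.45 in the labelled double knockout. Here the labelled double knockout replicate 1 was the low array. Without it 34 members were separate on the higher side (all probe sets, 8.3%) and the median was 0.41. Without replicate 2 the positive members numbered 36 and the median was 0.27. Dtl, the adaptor that marks licensing factors for destruction in S phase, went from 6.08, 6.16 and 5.96 to 6.62, 7.24 and 7.05 (0.90 ± 0.19, adjusted p = 0.15). Uhrf1, which carries DNA methylation to the new strand, went from 5.92, 5.79 and 5.62 to 6.28, 6.58 and 6.61 (0.71 ± 0.12, adjusted p = 0.0605). The polymerase subunit Pole and the helicase subunits Mcm5, Mcm6 and Mcm7 differed by 0.74, 0.67, 0.65 and 0.65, the sliding clamp Pcna by 0.39 and thymidine kinase Tk1 by 0.49, none of them called. Gmnn and Rfc3 were nearest to no difference at 0.04 each.

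**Figure D3:**
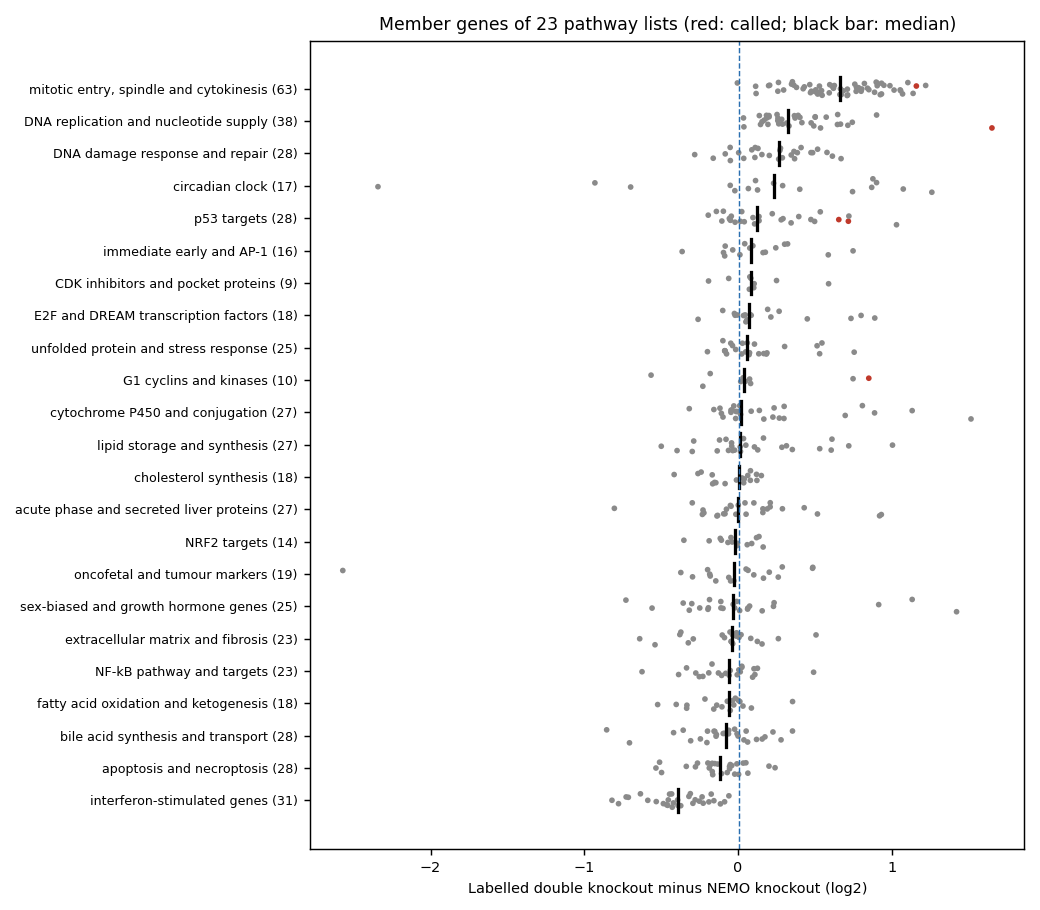
Log2 difference (labelled double knockout minus NEMO knockout) of every measured member of the 23 pathway lists, ordered by the list median (black bar), with called members in red and the number measured in brackets. The mitotic list sits at the right with a median of 0.67, the interferon-stimulated genes at the left with -0.39, and most other medians lie near 0.

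The list of E2F and DREAM transcription factors was split between members with large differences and members near 0. Of 18 means 13 were higher, none was called by limma, and the median difference was 0.07. By limma 5 were higher and 1 lower at an unadjusted p under 0.05 (all probe sets, 3.47% and 3.99%). The groups were separate on the higher side in 5 (all probe sets, 4.99%). Foxm1, which drives mitotic genes, stood at 6.43, 6.93 and 6.75 against 7.28, 7.58 and 7.65 (0.80 ± 0.18, adjusted p = 0.177). Mybl1, related to the B-Myb of the mitotic activator complex, stood at 7.48, 7.76 and 8.03 against 8.10, 8.31 and 9.53 (0.89 ± 0.33, adjusted p = 0.572), where replicate 3 was set apart. E2f1 was separate at 0.45 ± 0.13, while E2f8 differed by 0.74 but overlapped, since NEMO knockout replicate 2 read 8.37. Mybl2, E2f3, E2f4, Lin54, Lin37, Lin52 and Tfdp2 all lay within 0.06 of no difference, and each of these 7 changed sign under at least 1 setting tried. E2f6, a repressor of the family, stood at -0.26 ± 0.11.

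The G1 cyclins and kinases split in direction. Beside the called Ccne2, Ccnd1, the D-type cyclin that links growth signals to the cell cycle, read 11.54, 11.53 and 11.31 in the NEMO knockout and 10.66, 11.08 and 10.94 in the labelled double knockout. The groups did not overlap and both lay above wild type at 9.00 to 9.99 (difference -0.57 ± 0.22, adjusted p = 0.609). Ccnd2 and Cdk6 were separate on the lower side too, at -0.23 and -0.18. Myc, at 7.89 to 7.96 in the NEMO knockout, ran from 8.08 to 9.31 in the labelled double knockout (0.75 ± 0.27, adjusted p = 0.55). Cdk2, Cdk4, Ccne1, Ccnd3 and Cdc25a differed by 0.08 or less. The list gave 1 call in 10 (all probe sets, 0.197%).

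Of the other inhibitors of cyclin-dependent kinases none was called by limma among 9 inhibitors and pocket proteins. By limma 1 was higher and 1 lower at an unadjusted p under 0.05 (all probe sets, 3.47% and 3.99%). Cdkn1b and Cdkn1c, the relatives of p21 in the same family, differed by 0.07 ± 0.09 (95% interval -0.12 to 0.27) and 0.08 ± 0.08 (-0.10 to 0.26). Cdkn2c, an inhibitor of the INK4 type, read 8.10, 8.04 and 8.29 in the NEMO knockout and 8.22, 8.72 and 8.24 in the labelled double knockout, both above wild type at 7.11 to 7.17 (difference 0.25 ± 0.13, adjusted p = 0.71). Rbl1, the pocket protein p107 that is itself an E2F target, was separate at 6.81 to 7.04 against 7.33 to 7.64 (0.59 ± 0.17, adjusted p = 0.355). Rbl2, its relative p130, was separate the other way at -0.19 ± 0.08, and Rb1 differed by 0.11 ± 0.10.

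In the list of DNA damage response and repair genes none was called by limma and 23 of 28 means were higher, with a median difference of 0.27. By limma 15 were higher at an unadjusted p under 0.05 (all probe sets, 3.47%). The groups were separate on the higher side in 15 (all probe sets, 4.99%). Fancd2 and Fancb, of the Fanconi anaemia pathway that repairs crosslinks, differed by 0.67 ± 0.14 and 0.58 ± 0.13, and Brca1, of homologous recombination, by 0.47 ± 0.10 (adjusted p = 0.15). Chek1, the checkpoint kinase activated by stalled forks, went from 6.09, 6.25 and 5.96 to 6.52, 6.52 and 6.81 (0.52 ± 0.14, adjusted p = 0.322). The apex kinases Atm and Atr went the other way, at -0.28 and -0.08, and Trp53bp1 stood at -0.16. Many members are weak on these arrays: with probe sets below the overall median signal left out, 11 members were measured, 6 were positive and the median was 0.00. Without the labelled double knockout replicate 2 the median was 0.20.

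The p53 target list had 2 calls in 28, both higher (all probe sets, 0.0864%): Gtse1, described above, and Eda2r. It had 2 calls without the labelled double knockout replicate 1 and 0 without any other single array. After median centring it had 0. Eda2r, a receptor of the TNF receptor family for ectodysplasin A2, read 6.57, 6.75 and 6.64 in the NEMO knockout and 7.18, 7.57 and 7.35 in the labelled double knockout, after 4.89 to 5.07 in wild type (0.72 ± 0.10, adjusted p = 0.0348). It was not called without any 1 of the 9 arrays, with adjusted p from 0.0501 to 0.167 and a difference between 0.62 and 0.81. Psrc1, a spindle protein, differed by 1.03 ± 0.17 (adjusted p = 0.0605) and was called without the labelled double knockout replicate 1, at 1.27 (adjusted p = 0.0024). Zmat3, Phlda3 and Ccng1 were separate at 0.54, 0.50 and 0.29, and Mdm2, the ligase that turns p53 over, at 0.28 ± 0.10. Classical death and repair targets did not follow: Bbc3 stood at 0.04, Fas at -0.06, Ddb2 at 0.02 and Xpc at -0.19. The list median was 0.12.

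Beyond the cell cycle, calls that did not depend on any single array were few. Of the 33 single-symbol genes, 6 kept their call without each of the 9 arrays in turn and under every other setting tried: Acp1, Postn, Abca3, Clca3a1, Akap6 and Rab2b. None of them is on the cell cycle, replication or mitosis lists. Median centring ended the calls of Eda2r, Lynx1, Pgap6, Gtse1 and Ccdc18, cyclic loess those of Eda2r and Lynx1, and quantile scaling that of Arhgef40, besides Ifi213 under each of the 3. Fitting the knockout groups alone ended 21 of the 33 calls, and testing control probe sets too ended 19. Rrm2, Gtse1, G2e3, Cep55, H2ac4 and H2bc3 lost their calls under both of these settings.

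Clca3a1, of a family of secreted proteins that modulate chloride channels, had the lowest p of the comparison. It read 6.83, 7.09 and 7.02 in the NEMO knockout and 4.11, 4.21 and 4.46 in the labelled double knockout, a fall of 2.72 ± 0.13 on the log2 scale (6.61-fold lower, adjusted p = 0.000137). Wild type stood between them at 5.82 to 6.23. Its neighbour Clca3a2 fell as well, from 6.06, 6.24 and 6.56 to 5.06, 4.74 and 4.87 (1.40 ± 0.15 lower, adjusted p = 0.0118), a call lost without NEMO knockout replicate 2 or the labelled double knockout replicate 3 (adjusted p up to 0.067). The genes are close copies, so their probe sets may share signal.

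Nipal2, a membrane protein related to magnesium transporters, read 7.05, 7.50 and 8.03 in the NEMO knockout but 5.25, 5.47 and 5.69 in the labelled double knockout and 4.87 to 5.14 in wild type. The NEMO knockout stood 2.52 ± 0.22 above wild type and the labelled double knockout 2.06 ± 0.22 below the NEMO knockout (4.17-fold, adjusted p = 0.0108), and both differences use the same NEMO arrays. The call was lost without NEMO knockout replicate 2 or the labelled double knockout replicate 1 (adjusted p up to 0.0539). Akap6, an anchoring protein for protein kinase A, was also highest in the NEMO knockout, but its labelled double knockout arrays lay below wild type: 6.29, 6.32 and 6.29 in the NEMO knockout but 5.44, 5.17 and 5.47 in the labelled double knockout and 5.71 to 5.72 in wild type (-0.94 ± 0.08, adjusted p = 0.00564). Lynx1, a Ly6-type protein that binds nicotinic receptors, and Cfap54, a component of motile cilia, also stood above wild type in the NEMO knockout and fell, by 0.60 ± 0.08 and 0.66 ± 0.09. Lynx1 kept its call only without NEMO knockout replicate 1 and Cfap54 only without wild type replicate 2, with adjusted p up to 0.161 and 0.163.

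Defb1, an epithelial antimicrobial beta-defensin, fell from 7.20, 6.94 and 7.22 to 5.53, 5.84 and 5.80 (1.40 ± 0.14 lower, adjusted p = 0.00851), below wild type at 6.29 to 6.78. Colec11, a soluble collectin that binds microbial sugars and activates complement, fell from 9.71, 9.61 and 9.95 to 8.82, 8.63 and 8.59 (1.08 ± 0.11 lower, adjusted p = 0.0108), while the NEMO knockout overlapped with wild type at 9.45 to 9.76. Defb1 lost its call without NEMO knockout replicate 3 (adjusted p = 0.0597) and Colec11 without the labelled double knockout replicate 3 (0.067). Rab2b, a small GTPase of membrane traffic, fell from 7.60, 7.81 and 7.84 to 6.82, 6.90 and 7.01 (0.84 ± 0.08 lower, adjusted p = 0.00632). Wild type Rab2b, at 7.65 to 7.69, lay inside the range of the NEMO knockout.

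On the higher side, Acp1, a low-molecular-weight tyrosine phosphatase, went from 6.44, 6.33 and 6.47 to 7.47, 7.62 and 7.49 (1.11 ± 0.09, 2.16-fold, adjusted p = 0.0035), with wild type at 6.52 to 6.82. Abca3, a lipid transporter of intracellular membranes, went from 9.24, 9.42 and 9.47 to 10.23, 10.45 and 10.38 (0.98 ± 0.09, adjusted p = 0.00564), and its wild type range of 9.33 to 9.48 matched that of the NEMO knockout. Postn, the matrix protein periostin, went from 7.90, 7.96 and 7.87 to 8.98, 8.82 and 9.05 (1.04 ± 0.09, adjusted p = 0.00564). For these 3 genes the NEMO knockout was at or near the wild type level, and the labelled double knockout stood apart from both. The matrix list did not move with Postn: none of its 23 members was called by limma, and the median difference was -0.04. By limma 5 were lower at an unadjusted p under 0.05 (all probe sets, 3.99%). Tmem260 rose by 0.89 ± 0.10 (adjusted p = 0.0173), Slc22a26, of the organic anion carrier family, by 0.96 ± 0.14 and Cebpe, a myeloid transcription factor, by 0.77 ± 0.11. Tmem260 lost its call without NEMO knockout replicates 2 or 3 or the labelled double knockout replicates 2 or 3 (adjusted p up to 0.0682), Slc22a26 kept it only without NEMO knockout replicate 2, and Cebpe only without wild type replicate 1 (up to 0.161 and 0.167). Ccdc18, a coiled-coil protein, rose by 0.52 ± 0.08 from a low signal, 4.85 to 4.94 against 5.42 to 5.44, and kept its call only without wild type replicate 2.

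Other lower calls were of mixed size. Sntg2, a syntrophin, fell from 8.04, 8.10 and 8.02 to 7.40, 7.27 and 7.003 (0.83 ± 0.12 lower), Arhgef40, a guanine nucleotide exchange factor, fell by 0.53 ± 0.07, and Cpsf4, of the cleavage and polyadenylation complex, fell by 0.51 ± 0.06. Sntg2 kept its call only without wild type replicate 2, Cpsf4 only without wild type replicate 1 and Arhgef40 under no array left out, with adjusted p up to 0.167, 0.132 and 0.165.

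Rps2, a protein of the small ribosomal subunit, was lower on its own probe set (11.43, 11.50 and 11.51 against 11.02, 10.58 and 10.74, -0.70 ± 0.10). Of 17 probe sets annotated jointly to Gm10653 and Rps2, 16 were called lower by 0.36 to 0.41. They read near-identical sequence and share signal, so they count as 1 observation among the 32 lower calls. Outside that block, 3 joint probe sets that name 6820431F20Rik, 2610005L07Rik and Cdh11 rose by 0.51 to 0.57. A joint probe set of Gm21451 and Loxl2 rose by 0.77 ± 0.12. The largest called rises of all came from 2 probe sets with no gene name here, 2.27 ± 0.18 and 2.24 ± 0.21.

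Several called genes lay near each other, which is given here as a position with no test. On chromosome 12 Rrm2, Colec11, Sntg2 and Acp1 follow each other in a stretch with 23 tested genes, and G2e3 and Akap6 lie further along it. On chromosome 14 Tmem260, Arhgef40, Rab2b and Cebpe fall in 1 stretch of 110 tested genes, on chromosome 17 Tedc2, Abca3, Rps2 and Pgap6 in 1 of 91, and on chromosome 7 Ticrr and Prc1 in 1 of 19. Directions were mixed within the stretches on chromosomes 12, 14 and 17: Rrm2 and Acp1 rose while Colec11 and Sntg2 fell, and Abca3 rose while Tedc2, Rps2 and Pgap6 fell by 1.10, 0.70 and 0.52. All 4 of the chromosome 17 genes lie within 10 Mb of Cdkn1a, where 4 of 542 tested genes were called (0.738%) against 29 of 21156 elsewhere (0.137%). Of the 4, Tedc2, Rps2 and Pgap6 lost their calls without at least 8 of the 9 arrays (adjusted p up to 0.171), and Abca3 kept its call. The labels do not say whether the crossed lines share all other loci, and the part of linked background in these calls was not tested.

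The interferon-stimulated genes lay lower throughout, with no list member past the threshold. All 31 measured members had a lower mean in the labelled double knockout, none was called, and 18 were separate on the lower side (all probe sets, 5.75%), with a median difference of -0.39. At an unadjusted p under 0.05 limma gave 17 of 31 (all probe sets, 3.99% lower). The list mean was 8.22 to 8.38 in the NEMO knockout, 7.75 to 7.99 in the labelled double knockout and 7.61 to 7.88 in wild type, so the labelled double knockout overlapped with wild type and not with the NEMO knockout. The direction held for all 31 without any single array, with the median between -0.43 and -0.27, the latter without the labelled double knockout replicate 1. In the 18 separate members leaving out an array could not change it.

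Genes of antigen processing and of the immunity-related GTPases led that list. Tap1, which carries peptides to MHC class I, read 8.92, 8.86 and 9.16 in the NEMO knockout and 7.88, 8.26 and 8.35 in the labelled double knockout (-0.82 ± 0.14, adjusted p = 0.069), and Psmb9, of the immunoproteasome, differed by -0.63 ± 0.13. Irgm1 read 9.19, 9.12 and 9.33 against 8.17, 8.44 and 8.70 (-0.78 ± 0.13, adjusted p = 0.0767). The joint probe set of its relatives Irgm2 and Igtp showed the same with -1.62 ± 0.26, at an adjusted p of 0.0536. The joint probe set of Olfr56 and Ifi47, the latter another interferon-inducible GTPase, was called lower at -0.81 ± 0.12 (adjusted p = 0.0348). Zbp1, a nucleic acid sensor that can trigger necroptosis, differed by -0.71 ± 0.15 and Xaf1 by -0.73 ± 0.14, and Irf7, the master factor of the response, by -0.42 ± 0.10. Oas2, Oas3 and Ifi35 were nearest to no difference at -0.06, -0.09 and -0.11. Ifi213, of another interferon-inducible family, went the other way and was called, from 3.87, 4.76 and 3.99 to 5.43, 5.49 and 5.50 (1.26 ± 0.19, adjusted p = 0.0446), a call that among the arrays left out held only without NEMO knockout replicate 2. It was also lost under quantile, median and cyclic loess scaling and with array weights (adjusted p 0.0522 to 0.0685).

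**Figure D4:**
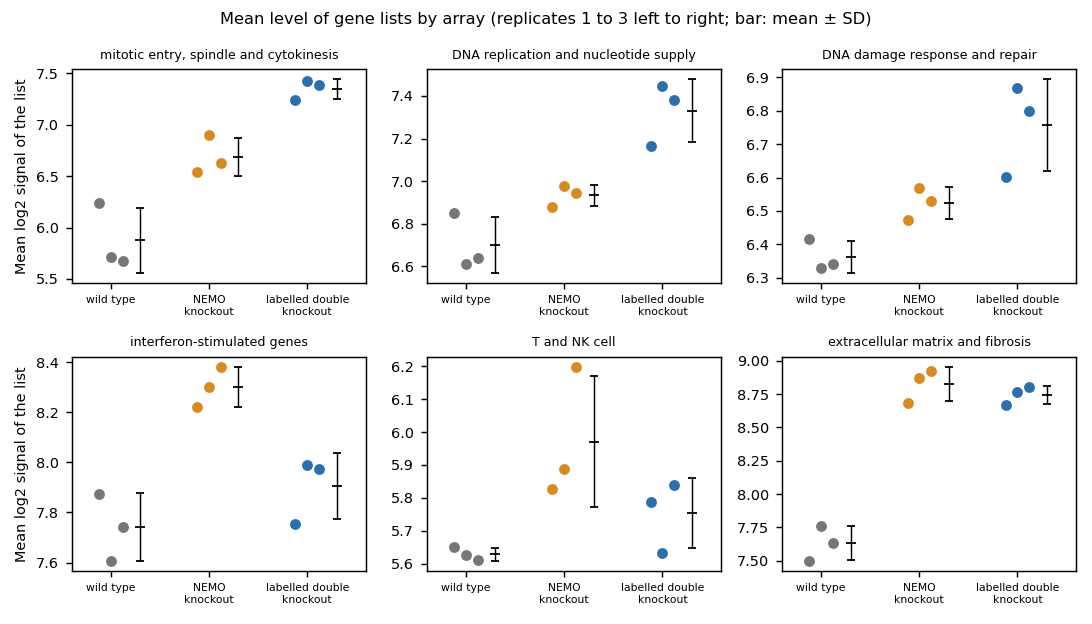
Mean log2 signal of 6 gene lists on each array of the 3 groups, replicates 1 to 3 from left to right, with a bar for mean ± SD and a separate scale in each panel. Mitotic genes go up in order from wild type (5.67 to 6.24) to the NEMO knockout (6.54 to 6.90) to the labelled double knockout (7.24 to 7.42), interferon-stimulated genes are highest in the NEMO knockout (8.22 to 8.38), and matrix genes overlap between the knockout groups.

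T and NK cell and neutrophil markers mostly had lower means, on signals that were mostly weak. With probe sets below the overall median signal left out, 3 T and NK cell markers and 1 neutrophil marker were measured. Of those 3, 2 had a lower mean and the median was -0.37, and the 1 neutrophil marker differed by -0.31. Of all 13 T and NK cell markers 11 had a lower mean, none was called by limma and the median difference was -0.20. In limma 4 were lower at an unadjusted p under 0.05 (all probe sets, 3.99%), and 4 were separate on the lower side (all probe sets, 5.75%). Their list mean ran from 5.83 to 6.20 in the NEMO knockout and from 5.63 to 5.84 in the labelled double knockout, which overlapped. Cd3g, a chain of the T cell receptor complex, read 5.72, 6.22 and 6.50 against 5.58, 5.42 and 5.59, and Ncr1, a natural killer receptor, differed by -0.53 ± 0.12. NEMO knockout replicate 3 was the highest array. The median was -0.06 without it and also -0.06 without the labelled double knockout replicate 2. It was -0.32 and -0.34 without NEMO knockout replicates 1 and 2, and -0.35 without the labelled double knockout replicate 3. Of 12 neutrophil markers 11 had a lower mean, none was called and 3 passed an unadjusted p under 0.05 in limma, with a median of -0.14, led by Cxcr2 at -0.72 ± 0.18. Single arrays moved that median: it was -0.05 with 8 of 12 lower without NEMO knockout replicate 3, -0.28 without NEMO knockout replicate 2 and -0.22 without the labelled double knockout replicate 1. Without NEMO knockout replicate 1 Cxcr2 was called at -0.96 (adjusted p = 0.0422). The part of these cells in the interferon difference was not tested.

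Markers of other cells follow, of which infiltrating macrophage markers lay close to the neutrophil median of -0.14. Infiltrating macrophage markers had a median of -0.12, stellate cell markers of -0.08 and Kupffer, endothelial and hepatocyte markers of 0.00 each, with no call by limma among 12, 12, 12, 12 and 11 genes. At an unadjusted p under 0.05 in limma they held 3, 1, 2, 2 and 2 genes in that order (all probe sets, 7.46%). Single genes stood out without being called: Cd163, a scavenger receptor of resident macrophages, read 5.34, 5.90 and 5.16 against 6.33, 6.005 and 6.37 (0.77 ± 0.20), and Lyve1, of sinusoidal endothelium, differed by 0.68 ± 0.23. Glul, made by the hepatocytes around central veins, was separate at 12.09, 11.99 and 11.98 against 11.71, 11.68 and 11.66 (-0.34 ± 0.07, adjusted p = 0.126).

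The NF-kB and cell death lists held no call and had more lower than higher means. Over all probe sets, 5.75% were separate on the lower side and 4.99% on the higher side. By limma 3.99% of all probe sets were lower and 3.47% higher at an unadjusted p under 0.05. In the NF-kB list limma called none of 23, 5 were lower at an unadjusted p under 0.05, 14 had lower means, 6 were separate on the lower side and 1 on the higher side, and the median was -0.06, with Nfkbie at -0.39 ± 0.10 and Ccl5 at -0.62. In the apoptosis and necroptosis list limma called none of 28, 1 was higher and 4 lower at an unadjusted p under 0.05, 22 had lower means, 7 were separate on the lower side, 1 on the higher side, and the median was -0.12. That median was -0.04 without NEMO knockout replicate 3 and -0.07 without the labelled double knockout replicate 1. Separate lower members numbered 12 without NEMO knockout replicate 2 (all probe sets, 8.57%). They numbered 11 without the labelled double knockout replicate 3 (all probe sets, 9.29%). Mlkl, the pore-forming effector of necroptosis, read 7.90, 7.88 and 8.06 in the NEMO knockout and 7.05, 7.68 and 7.51 in the labelled double knockout (-0.53 ± 0.14, adjusted p = 0.286), both above wild type at 6.41 to 6.50. Tnfsf10, the death ligand TRAIL, differed by -0.50 ± 0.14.

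Splits inside the groups touched several large differences. In the labelled double knockout replicate 2 stood apart from replicates 1 and 3 in genes of the circadian clock, the daily oscillator of liver metabolism. Nr1d1, the clock repressor REV-ERB alpha, read 8.23, 11.44 and 7.63 in the labelled double knockout and 11.60, 11.37 and 11.36 in the NEMO knockout, a mean difference of -2.34 ± 0.87 that was not called (adjusted p = 0.582). Replicate 2 alone matched the NEMO knockout. Dbp, an output factor of the clock, read 8.38, 10.47 and 7.92, and Cry1, a core repressor, read 8.41, 6.45 and 8.76 against 6.48 to 6.68 in the NEMO knockout (1.26 ± 0.50, adjusted p = 0.624). Without replicate 2 the Cry1 difference was 1.97 and called (adjusted p = 0.0317). Replicate 2 stood apart in the other groups as well. NEMO knockout replicate 2 was low in Ciart, at 5.75 against 8.22 and 7.83, in Usp2, at 7.76 against 9.13 and 9.10, in Per2, at 7.59 against 8.22 and 8.28, and in Dbp, at 9.16 against 10.35 and 10.05. Wild type replicate 2 was low in Nr1d1, at 9.73 against 11.74 and 11.11.

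The same replicate stood apart in Cdkn1a itself (10.14 against 11.14 and 11.06), in the chaperones Hsph1 (7.33 against 8.80 and 8.75) and Hsp90aa1 (10.77 against 11.64 and 11.46), and in Ly6d. Ly6d encodes a Ly6-type surface protein. It was far above wild type in the NEMO knockout (10.79, 11.15 and 10.999 against 6.07 to 6.98) and read 7.35, 10.27 and 7.61 in the labelled double knockout. Its difference of -2.57 ± 0.64 was not called (adjusted p = 0.254), and without replicate 2 it was -3.50 and called (adjusted p = 0.00457). The hour at which livers were taken is not in the labels, and its part in these differences was not tested. Without replicate 2 the mitotic list had 53 separate members on the higher side, where the share over all probe sets was 9.42%, and a median of 0.61.

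**Figure D5:**
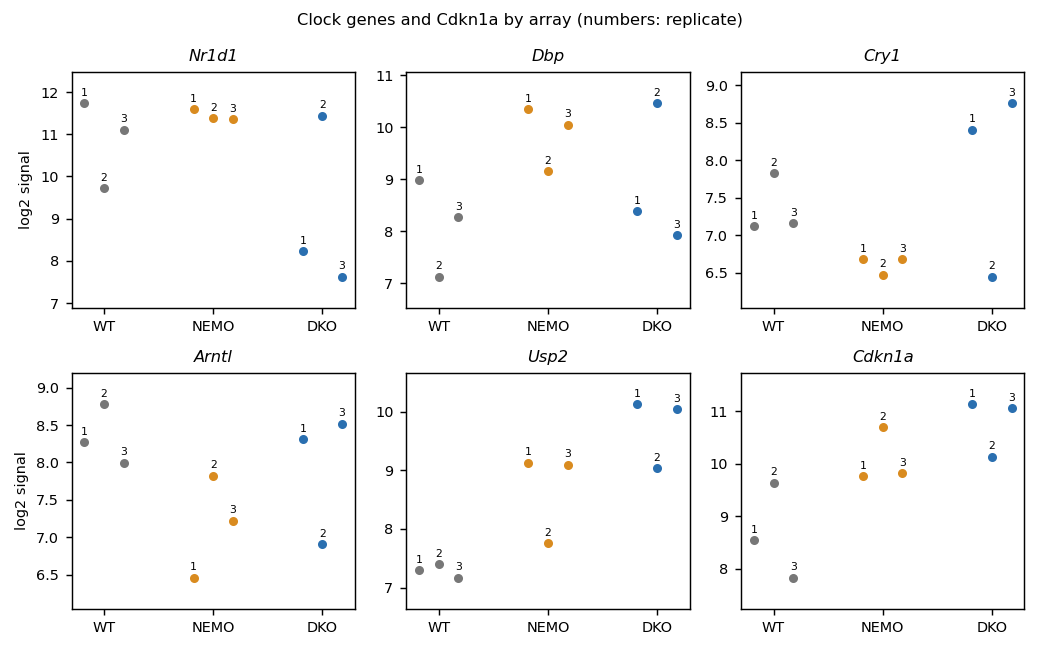
Log2 signal of 5 clock genes and Cdkn1a on each array of wild type (WT), the NEMO knockout (NEMO) and the labelled double knockout (DKO), with the replicate number over each point and a separate scale in each panel. DKO replicate 2 lies away from replicates 1 and 3 in each panel, for Nr1d1 at 11.44 against 8.23 and 7.63.

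Lists of liver functions outside growth and immunity held no calls by limma. Metallothioneins, the zinc-binding stress proteins, came nearest: Mt1 read 10.28, 10.50 and 9.95 in the NEMO knockout and 11.12, 11.18 and 11.22 in the labelled double knockout (0.93 ± 0.15, adjusted p = 0.0536), and Mt2 differed by 0.92 ± 0.20. Mt2 was called without NEMO knockout replicate 2, at 1.17 (adjusted p = 0.0475). Bile acid genes had a median of -0.08 over 28 members. In limma 2 of them were higher and 3 lower at an unadjusted p under 0.05 (all probe sets, 3.47% and 3.99%). Hsd3b7, an enzyme of bile acid synthesis, was separate at -0.42 ± 0.10 (adjusted p = 0.253). It was called without the labelled double knockout replicate 2, at -0.55 (adjusted p = 0.0473). Cyp7a1, which sets the rate of bile acid synthesis, differed by -0.14 ± 0.28, and the bile salt pump Abcb11 by -0.20. Cytochrome P450 and cholesterol synthesis lists had medians of 0.02 and 0.01, with the inducible Cyp2b10 at 8.00, 6.59 and 7.68 against 10.22, 7.13 and 9.46, again low in replicate 2. Among oncofetal markers Igf2 was separate at 0.49 ± 0.12 (adjusted p = 0.257), and Afp and Gpc3 differed by -0.05 and -0.18.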

How the data were processed

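RNA of 9 mouse livers was measured on single-channel Affymetrix gene arrays, 3 per group. The authors deposited log2 values for each probe set, made with RMA per the submitters' processing notes. The log base was inferred from RMA and the range of values, and the sources used here give neither software versions nor a genome build. RMA's quantile step equalises the arrays, so a change common to all genes would not be seen. Arrays give no read depth, and their number limits the precision.

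Of 35556 probe sets, 6617 (18.6%) whose identifiers come before the first annotated one were taken as control probe sets, an inference, and left out. The fit used lmFit and eBayes of limma 3.58.1 (R 4.3.3) on all 9 arrays with 1 mean per group. P-values were Benjamini-Hochberg adjusted over 28939 probe sets, with 0.05 as the threshold for a call. Values after ± are standard errors, and 95% intervals are of the difference. The fit was tested on simulated data. Platform annotation gave 1 symbol to 21789 probe sets, several to 1621 and none to 5529. The gene table (GRCm38.p6) served for names (21698 matched) and for which genes neighbour each other. A listed gene was read from its probe set with the highest mean, and 675 of 738 list entries were measured.

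Named are Cdkn1a, Ikbkg, the 15 largest called changes each way among probe sets with 1 symbol (without predicted genes, small RNAs, and vomeronasal or olfactory receptors), called list members (up to 4 per list, or 2 of lowest p where none was called), 3 cell cycle lists and called genes within 10 Mb of Cdkn1a. Cep55, Ccdc18, joint probe sets and other list members were chosen after their values were seen. The members and lists were chosen with earlier results of these data known. Alternatives were the groups fitted alone, a replicate block, each array left out, quantile, median and cyclic loess scaling, a filter on low signal, trend, robust and weighted fits, control probe sets, repeated values and the mean over a gene's probe sets.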

Additional observations from a re-analysis of the deposited data

How the results depend on the processing

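The number of called probe sets varied with the arrays and the fit. Against 57 (25 higher, 32 lower) as reported, the knockout groups fitted alone gave 23 (16 and 7), median-centred arrays 31 (14 of them lower), control probe sets tested too 28 (10 of them lower) and array weights 40 higher. With 1 of the 9 arrays left out the count ran from 10 to 44, from 5 to 36 higher and from 5 to 14 lower. With the replicate number as a block it was 18 (9 higher and 9 lower), and 21 of the 33 single-symbol genes lost their call. Deviations of same-numbered arrays correlated at 0.391, 0.0826 and 0.247, and those of unlike-numbered arrays at -0.301 to 0.115. NEMO knockout replicates 1 and 3 correlated best with the labelled double knockout array of their own number. NEMO knockout replicate 2 correlated best with the labelled double knockout replicate 3, at 0.115 against 0.0826. Whether the replicate numbers mark a shared factor was not tested.

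No called gene with 1 symbol changed sign. Leaving out an array could not bring that about, as the groups did not overlap in any of them. Some differences near 0 did. Array weights gave -0.00887 for Ccnd3, -0.0196 for E2f3 and 0.00907 for Pttg1. Quantile normalization and cyclic loess gave 0.00724 and 0.00203 for Lin52, 0.0225 and 0.0185 for Tfdp2 and 0.0215 and 0.0187 for Pttg1. With arrays left out the range was -0.171 to 0.00541 for Ikbkg, -0.157 to 0.0260 for Cdkn2a, -0.0205 to 0.223 for Cdkn2b, -0.0416 to 0.0819 for Ccnd3, -0.0978 to 0.239 for Ccne1, -0.0581 to 0.180 for Cdc25a, -0.116 to 0.214 for E2f3, -0.000856 to 0.0825 for E2f4, -0.00783 to 0.128 for E2f5, -0.0922 to 0.0684 for Tfdp2, -0.0148 to 0.161 for Mybl2, -0.113 to 0.0419 for Lin37, -0.00649 to 0.136 for Lin54 and -0.322 to 0.176 for Pttg1. The cause was not tested. The number of arrays limits the precision.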

Other observations

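Further lists held no call by limma, and the genes given here are among the 2 of lowest p in each. In the list of fatty acid oxidation and ketogenesis 13 of 18 means were lower in the labelled double knockout, with a median difference of -0.06. By limma 3 were lower at an unadjusted p under 0.05 (all probe sets, 3.99%). Ppara, the nuclear receptor that induces these genes, read 10.96, 11.17 and 10.88 in the NEMO knockout and 10.68, 10.88 and 10.44 in the labelled double knockout (-0.33 ± 0.12, adjusted p = 0.587). Cpt1a, which admits fatty acids to mitochondria, differed by -0.33 ± 0.13 and overlapped between the groups. In the list of lipid storage and synthesis 3 of 27 were higher and 1 lower at an unadjusted p under 0.05 in limma (all probe sets, 3.47% and 3.99%). Cd36, a fatty acid receptor, was separate at 10.25, 9.996 and 10.32 against 10.59, 10.54 and 10.50, with wild type far below at 8.08 to 8.33 (0.35 ± 0.10, adjusted p = 0.335). Plin5, a lipid droplet protein, read 8.32, 8.72 and 8.30 against 9.43, 8.67 and 9.42, so the labelled double knockout replicate 2 again lay with the NEMO knockout.

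Of 25 sex-biased and growth hormone genes 1 was higher and 0 lower at an unadjusted p under 0.05 in limma (all probe sets, 3.47% and 3.99%). Serpina4-ps1 was below wild type (11.97 to 12.62) on every knockout array, at 8.01, 10.30 and 9.25 in the NEMO knockout and 10.97, 9.67 and 11.18 in the labelled double knockout. That was a difference of 1.42 ± 0.55 between overlapping groups (adjusted p = 0.616). Among 9 B cell markers 6 had a lower mean, led by the adaptor Blnk at 7.40, 7.68 and 7.86 against 6.88, 7.19 and 7.29 (-0.53 ± 0.13, adjusted p = 0.263). Junb, an AP-1 subunit, read 7.57, 7.39 and 7.71 against 7.26, 7.26 and 7.04 (-0.36 ± 0.14, adjusted p = 0.585). Blnk and Junb did not overlap between the knockout groups.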
